A study of Mus musculus with 6 samples.

Results

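The 8 genes *Sox9*, *Spp1*, *Cldn4*, *Krt7*, *Krt19*, *Krt23*, *Epcam* and *Cd24a* mark the epithelium of the bile ducts and liver progenitor cells. They were taken by gene name from a table of 57180 genes, in which all 8 were found. They had been selected on reads of these genes seen in the cultured hepatocytes, with the results known, so their presence and the direction of each is a description. The libraries were made from primary hepatocytes of male mice, isolated by collagenase perfusion and washed by low-speed centrifugation, and cultured in medium with dexamethasone and fetal bovine serum. In the KO group (n = 3) the cells came from mice with a liver-specific knockout of STING, the adaptor of cytosolic DNA sensing, in which Cre is driven by the albumin promoter in STING floxed animals. The LOXP group (n = 3) came from STING floxed control mice. That promoter is active in hepatocytes and also, before birth, in the hepatoblasts from which bile duct cells arise. All 6 cultures received 0.1 mM palmitic acid (PA), a saturated fatty acid, for 24 h, and no culture without PA was analysed here. Mice throughout the study were on a C57BL/6 background and aged 8 to 10 weeks. Whether each library came from a separate mouse was not given in the sources used here, so p-values measure the spread between these libraries, which may be technical.

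Counted reads per library ran from 14726983 to 18536985. *Sting1*, the targeted gene, had 19, 16 and 23 counts in LOXP replicates 1, 2 and 3 and 24, 23 and 15 in KO replicates 1, 2 and 3. Its log2 fold change of -0.08 ± 0.298 (SE, edgeR adjusted p = 0.883) did not separate the groups. The study itself reported, by RT-PCR on purified hepatocytes, that STING mRNA was present in controls and lost in the knockout. Log2 fold changes are KO over LOXP, and p-values come from edgeR's quasi-likelihood test, adjusted over all genes tested. The part of the gene that was deleted is not given in the sources used here, and the libraries are called LOXP and KO as they were labelled. LOXP replicate 2 stood apart in inflammatory transcripts, with 75 counts of *Il1b* against 0 in each other library and 73 counts of *Tnf* against 0 to 10, and results were therefore also computed without it. *Alb*, the defining hepatocyte transcript, had a mean of 7670 and 6541 FPKM, a read count scaled to gene length and library total, in LOXP and KO.

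Bile ducts are lined by cholangiocytes, a simple epithelium that shares a fetal precursor, the hepatoblast, with hepatocytes. Hepatocytes normally build their filaments from keratins 8 and 18, whereas cholangiocytes add keratins 7 and 19, express the transcription factor SOX9 and carry EpCAM on their surface. In injured liver and in culture, hepatocytes can take up parts of the biliary programme, in which Notch and YAP signaling take part, and SOX9 and osteopontin are among the genes known to appear.

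The 3 genes with the highest mean FPKM among the 8 were lower in KO. *Cldn4* had a mean FPKM of 111 in LOXP and 55.8 in KO, *Sox9* of 13.4 and 7.49, and *Spp1* of 7.14 and 1.78. *Krt19*, near 1 FPKM, was higher in KO and *Cd24a*, below 1 FPKM, was lower, and both calls were lost in several other fits. *Krt23*, *Epcam* and *Krt7* did not exceed 0.322 FPKM in any library and had too few counts to be tested. Of all 14151 genes tested, 11.6% were lower and 11.5% higher in KO at an adjusted p under 0.05. These shares also stand beside the counts of each gene list below. Of the 8 genes, 4 were lower and 1 higher at that threshold. *Cd24a* reached the filter on low counts through the LOXP libraries, in which it was higher, so these counts describe the genes and are no evidence on them as a set. By the study's own criteria for differential expression, an absolute log2 fold change above 1, a q-value under 0.05 and more than 1 FPKM on average in either group, *Spp1* and *Cldn4* were lower, as were 1.49% of all genes tested, and none was higher, as were 0.558%. The normalized libraries of the groups lay apart for the 5 genes that were tested, 4 lower and 1 higher in KO, beside 20.3% and 20.4% of all genes tested.

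**Figure D1:**
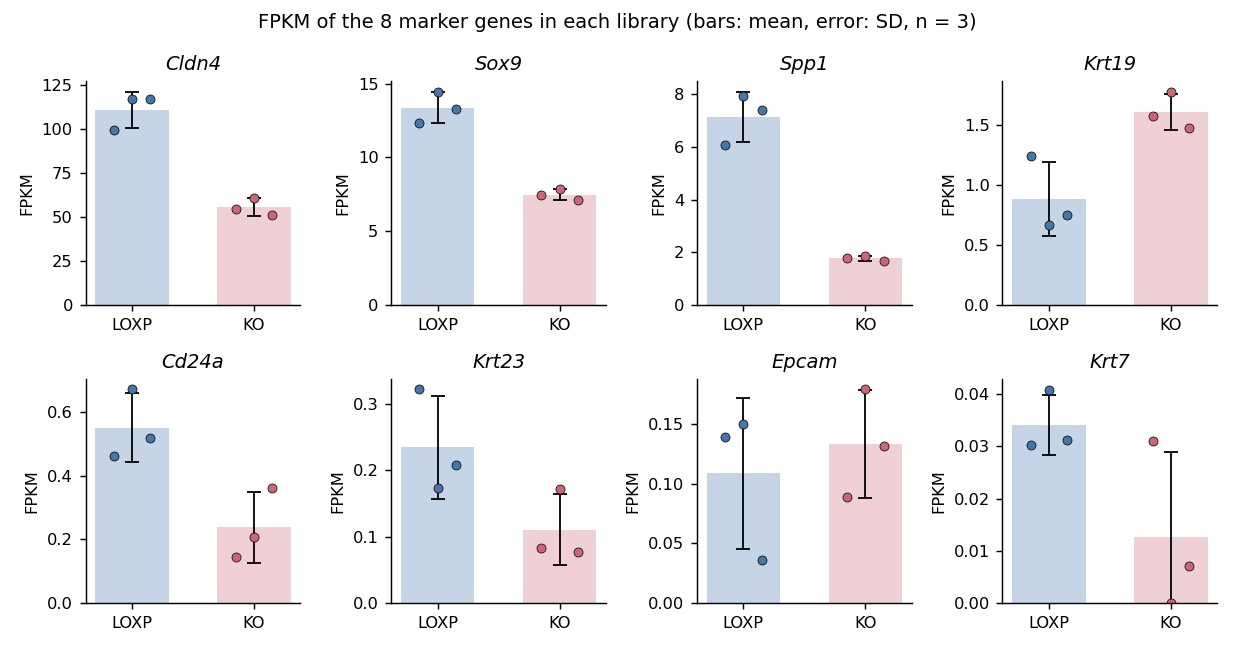
FPKM of each of the 8 genes in the 3 LOXP and 3 KO libraries (points), with the group mean (bar, from 0) and SD (error bar). The groups lie apart for Cldn4, Sox9, Spp1, Krt19 and Cd24a, nearly meet for Krt23 at 0.174 and 0.172 FPKM, and overlap for Epcam and Krt7.

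*Sox9* (ENSMUSG00000000567, chromosome 11, 112673050 to 112678586 on GRCm39) encodes the transcription factor that marks the biliary lineage and bipotent progenitors. It had 811, 880 and 843 counts in LOXP replicates 1, 2 and 3 and 478, 605 and 494 counts in KO replicates 1, 2 and 3. Per length, these were 12.3, 14.5 and 13.3 FPKM against 7.45, 7.89 and 7.12 FPKM. Every KO library was below every LOXP library, and the libraries of a group lay close together, with a coefficient of variation of the normalized counts of 9.28% in LOXP and 6.28% in KO. The log2 fold change was -0.87 ± 0.0892 (SE, edgeR adjusted p = 4.08e-04) and -0.80 without LOXP replicate 2. In bulk libraries such as these, fewer cells that express a gene and less of its RNA per cell cannot be told apart.

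*Spp1* (ENSMUSG00000029304, chromosome 5, 104582984 to 104588916) encodes osteopontin, a secreted, integrin-binding phosphoprotein that cholangiocytes, macrophages and injured hepatocytes are known to make. It showed the widest difference among the 5 genes tested. It had 519, 628 and 610 counts in LOXP replicates 1, 2 and 3 and 150, 186 and 151 counts in KO, which made 6.08, 7.94 and 7.41 FPKM against 1.80, 1.87 and 1.68 FPKM. The lowest LOXP library was thus well above the highest KO library. The log2 fold change was -2.04 ± 0.125 (SE, edgeR adjusted p = 3.88e-05) and -1.94 without LOXP replicate 2. The ratio of *Spp1* to *Sox9* in FPKM was 0.493, 0.549 and 0.557 in LOXP and 0.242, 0.237 and 0.235 in KO, lower in every KO library. The table also lists a transcript of unconfirmed status, *Gm42793*, that overlaps *Spp1* and had 10 counts over all 6 libraries.

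The receptors through which osteopontin is known to act were a separate list of 10 genes, integrins and *Cd44*, of which 8 were tested. Of these, 1 was lower and 2 were higher in KO, with a median log2 fold change of -0.02 beside a median of -0.00211 over all genes tested. *Itgb1*, which encodes the shared beta subunit, was the most abundant and had a mean FPKM of 119 in LOXP and 122 in KO. *Itgb5* fell by 0.21 in log2 units (edgeR adjusted p = 0.0267), *Itgb6*, an epithelial beta subunit, rose by 1.19 (adjusted p = 0.00149) and *Cd44* rose by 0.44 (adjusted p = 0.0320). The calls of *Itgb5* and *Cd44* were lost in 6 and 5 of 12 other fits.

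*Cldn4* (ENSMUSG00000047501, chromosome 5, 134973973 to 134975788) encodes claudin 4, a tight junction protein of ducts and other tight epithelia. It was the most abundant of the 8 genes, above 95.7% of the genes tested in mean FPKM. It had 2865, 3128 and 3257 counts in LOXP replicates 1, 2 and 3 and 1546, 2054 and 1567 counts in KO. Per length, LOXP had 99.3, 117 and 117 FPKM and KO had 54.9, 61.0 and 51.4 FPKM. No KO library reached the lowest LOXP library. The log2 fold change was -1.03 ± 0.0963 (SE, edgeR adjusted p = 2.81e-04), which lies close to the study's fold criterion. It was -0.98 without LOXP replicate 2, -0.99 without LOXP replicate 3 and -0.96 without KO replicate 3, each short of that criterion and past the p threshold. The ratio of *Cldn4* to *Sox9* in FPKM was 8.04, 8.09 and 8.80 in LOXP and 7.36, 7.73 and 7.22 in KO, also lower in every KO library but by less.

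A related claudin gene and the genes near *Cldn4* on chromosome 5 were measured beside it. *Cldn3*, which encodes claudin 3 of the same junctions and starts within 100 kb of *Cldn4*, had 237, 274 and 296 FPKM in LOXP replicates 1, 2 and 3 and 310, 366 and 332 FPKM in KO. Its KO libraries all lay above its LOXP libraries, and the log2 fold change of 0.29 ± 0.0956 (SE, edgeR adjusted p = 0.0637) missed the threshold, which 4 of 12 other fits passed. The FPKM of *Cldn4* relative to *Cldn3* was 0.419, 0.428 and 0.395 in LOXP and 0.177, 0.167 and 0.155 in KO. *Mettl27*, the tested gene nearest to *Cldn4* and on its other side, had a log2 fold change of -0.37 (adjusted p = 0.220). *Cdh1*, which encodes the E-cadherin of the adherens junction, fell from 85.2, 84.4 and 83.5 FPKM in LOXP to 41.4, 41.3 and 37.4 FPKM in KO. Its log2 fold change was -1.11 ± 0.0603 (SE, edgeR adjusted p = 2.08e-05).

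Promoter sequences are shown for *Cldn4* and *Spp1*, because these 2 genes met all of the study's criteria. Each is the window of 250 bases before a RefSeq start site on GRCm38.p6, a build other than that of the deposited table. Entries were found for 5 of the 8 genes, namely *Cldn4*, *Epcam*, *Krt23*, *Krt7* and *Spp1*. Capitals mark matches, on either strand, to 5 short motifs that were searched, AP-1 (TGANTCA), TEAD (GGAATG), RBPJ (GTGGGAA), SOX (AACAAT) and an HNF1 half-site (GTTAAT), none of which overlapped another in these windows. The *Cldn4* window is chr5:134946935-134947184 on the minus strand and the *Spp1* window, before the first of its 2 listed starts, is chr5:104434861-104435110 on the plus strand.
Cldn4: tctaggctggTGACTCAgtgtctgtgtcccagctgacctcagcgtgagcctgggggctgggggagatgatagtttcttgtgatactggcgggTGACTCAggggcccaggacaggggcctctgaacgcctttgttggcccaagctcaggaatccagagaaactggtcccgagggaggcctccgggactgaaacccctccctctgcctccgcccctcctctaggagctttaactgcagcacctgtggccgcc
Spp1: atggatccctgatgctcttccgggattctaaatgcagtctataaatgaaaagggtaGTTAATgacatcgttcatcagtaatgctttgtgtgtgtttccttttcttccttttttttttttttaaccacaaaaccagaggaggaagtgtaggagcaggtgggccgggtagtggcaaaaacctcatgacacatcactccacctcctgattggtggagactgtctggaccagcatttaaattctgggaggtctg
The *Cldn4* window held AP-1 letters at 2 places, which begin 240 and 158 bases before the start. Of the 32851 windows of this length in the RefSeq table, 6.75% held at least 1 such match. The *Spp1* window held 1 HNF1 half-site, which begins 194 bases before the start and is found in 6.43% of all windows. TEAD letters were found in 12.6%, RBPJ letters in 5.42% and SOX letters in 9.42% of all windows and in no window of the 5 genes. A match is a run of letters and not a measured binding site.

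*Epcam* (ENSMUSG00000045394, chromosome 17, 87943407 to 87958557), which encodes the adhesion molecule used to sort biliary and progenitor cells, was near the limit of detection. It had 8, 8 and 2 counts in LOXP replicates 1, 2 and 3 and 5, 12 and 8 counts in KO. The groups overlapped, with 0.0361 to 0.150 FPKM in LOXP and 0.0891 to 0.179 FPKM in KO. Pooled over libraries, 18 counts in LOXP and 25 in KO gave a ratio of KO to LOXP of 1.23 relative to normalized library sizes, with an exact Poisson 95% interval, for counting error alone, from 0.642 to 2.38. *Cldn7*, which encodes the claudin that binds EpCAM, had 6 counts in all 6 libraries together.

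*Cd24a* (ENSMUSG00000047139, chromosome 10, 43454280 to 43460261) encodes a glycosylated surface protein that marks progenitor, biliary and also blood cells. It had 23, 31 and 25 counts in LOXP replicates 1, 2 and 3 and 7, 12 and 19 counts in KO, or 0.462, 0.672 and 0.520 FPKM against 0.144, 0.207 and 0.361 FPKM. All KO libraries were lower, but KO replicate 3 lay nearer to LOXP than the other two. The log2 fold change was -1.24 ± 0.361 (SE, edgeR adjusted p = 0.0400). Without LOXP replicate 2 it was -1.06 (adjusted p = 0.114), and the adjusted p ran from 0.0273 to 0.130 over 12 other fits, of which 7 missed the threshold. The pooled ratio of KO to LOXP was 0.424, from 79 and 38 counts. Its exact Poisson 95% interval, from 0.280 to 0.633, covers counting error alone and not the spread between libraries.

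Of the 3 keratins among the 8 genes, *Krt19* alone had enough counts to be tested. *Krt19* (ENSMUSG00000020911, chromosome 11, 100031636 to 100039491), the type I keratin of bile ducts, had 46, 23 and 27 counts in LOXP replicates 1, 2 and 3 and 57, 77 and 58 counts in KO. The FPKM values were 1.24, 0.669 and 0.754 in LOXP and 1.57, 1.78 and 1.48 in KO, so that LOXP replicate 1 came close to the KO libraries without reaching them. The log2 fold change was 0.82 ± 0.253 (SE, edgeR adjusted p = 0.0479), the direction opposite to that of *Sox9*, *Spp1* and *Cldn4*. It was 0.67 without LOXP replicate 2 (adjusted p = 0.119) and 1.13 without LOXP replicate 1 (adjusted p = 0.0138). The adjusted p was above the threshold in 8 of 12 other fits, with the replicate number as a block among them (0.0628), and reached 0.152 without KO replicate 2.

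*Krt23* (ENSMUSG00000006777, chromosome 11, 99368800 to 99383963), a type I keratin known from stressed and ductular epithelium, had 8, 4 and 5 counts in LOXP and 2, 5 and 2 counts in KO. The pooled ratio of KO to LOXP was 0.467, with an exact Poisson 95% interval from 0.184 to 1.11. *Krt7* (ENSMUSG00000023039, chromosome 15, 101308924 to 101328194), the type II keratin of bile ducts, had 4, 5 and 4 counts in LOXP and 4, 0 and 1 counts in KO, where a count of 0 allows up to 3 counts. Its pooled ratio was 0.339, with an interval from 0.0947 to 1.01. The counts of both genes overlapped between the groups. In FPKM, *Krt7* overlapped and *Krt23* nearly met, with a highest KO value of 0.172 and a lowest LOXP value of 0.174. Both intervals include a ratio of 1, so no difference was detectable at this depth.

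Among the other keratins of simple epithelia, all 4 that could be tested were higher in KO. *Krt8* and *Krt18*, the pair that hepatocytes use, were far more abundant than the duct keratins, with 3336 and 3901 FPKM in LOXP and 4122 and 4613 FPKM in KO. *Krt8* rose by 0.27 and *Krt18* by 0.21 in log2 units (edgeR adjusted p = 0.00860 and 0.0243), and the call of *Krt18* was lost in 4 of 12 other fits. *Krt20*, a keratin of gut and urothelium that lies within 100 kb of *Krt23*, had 4.02, 2.22 and 3.01 FPKM in LOXP replicates 1, 2 and 3 and 13.4, 11.4 and 11.4 FPKM in KO. Its log2 fold change of 1.93 ± 0.185 (SE, edgeR adjusted p = 3.05e-04) stands beside the 0.82 of *Krt19*, and the difference between both was not tested. *Krt80*, within 100 kb of *Krt7* and named after its values were seen, rose by 1.22 (adjusted p = 0.0141) but did not exceed 0.392 FPKM in any library.

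**Figure D2:**
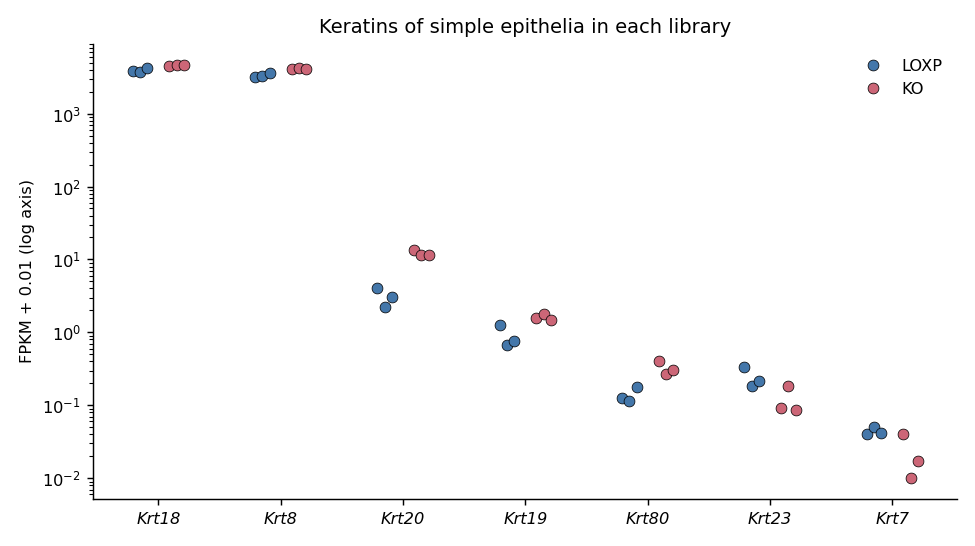
FPKM of 7 keratin genes in each LOXP and KO library, on a log axis with 0.01 added to each value. Krt18 and Krt8 lie at or above 3203 FPKM, Krt20, Krt19 and Krt80 are higher in KO without overlap, and the Krt23 and Krt7 points, none above 0.322 FPKM, meet or overlap.

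In mean FPKM over the 6 libraries, the order of the 8 genes was *Cldn4*, *Sox9*, *Spp1*, *Krt19*, *Cd24a*, *Krt23*, *Epcam* and *Krt7*. In LOXP, neighbours in this order lay apart except *Krt19* and *Cd24a*, and *Epcam* and *Krt7*, whose libraries overlapped. In KO, *Spp1* (1.78 ± 0.0978 FPKM, SD, n = 3) and *Krt19* (1.61 ± 0.153) overlapped, as did *Cd24a* (0.237 ± 0.112) and *Krt23* (0.110 ± 0.0538), and *Krt23* and *Epcam* (0.133 ± 0.0450), which changed places.

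**Figure D3:**
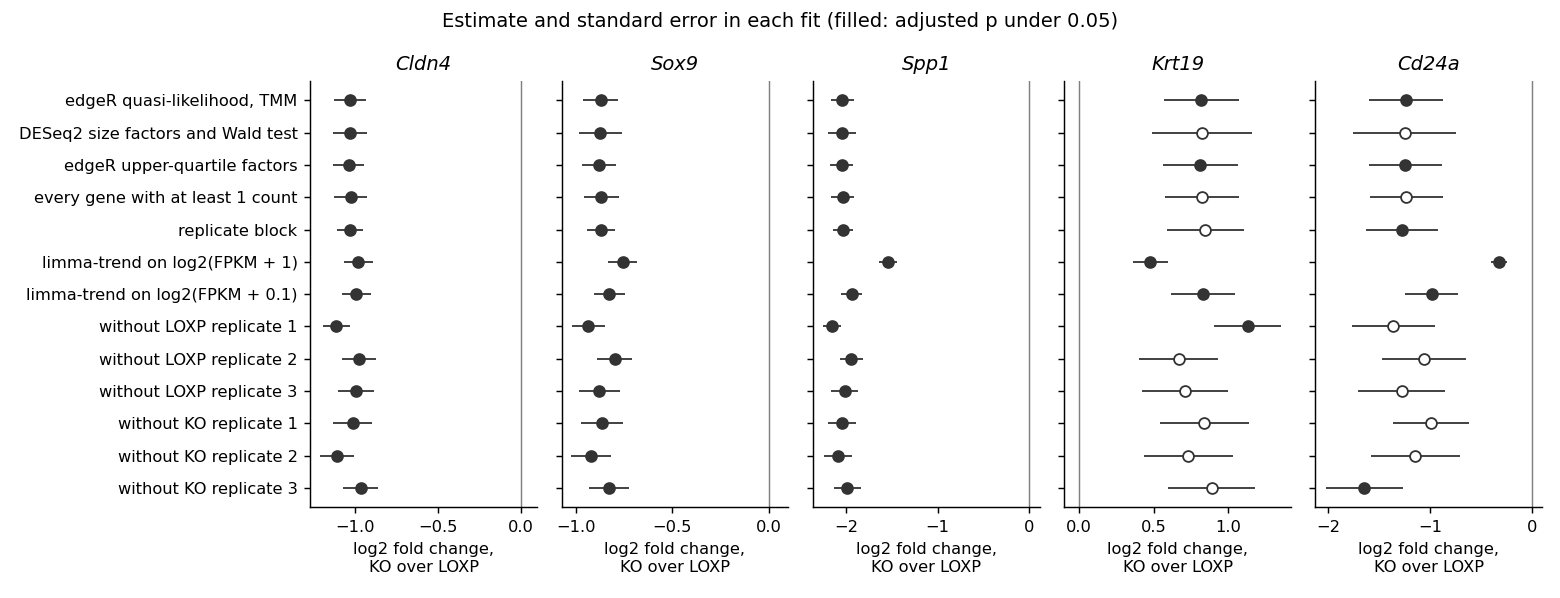
Log2 fold change of KO over LOXP (x axis) with its standard error for the 5 genes that could be tested, in the edgeR fit and 12 other fits (rows), filled where the adjusted p was under 0.05. Cldn4, Sox9 and Spp1 are filled in every row, Krt19 in 5 and Cd24a in 6 of 13.

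Other genes of bile duct epithelium were examined as a list of 36, of which 21 were tested. Of these, 3 were lower and 3 higher in KO at an adjusted p under 0.05, with a median log2 fold change of -0.18. The most abundant genes of this list, *Anxa5*, *Cldn3* and *Cdh1*, are not particular to ducts. The lower genes were *Cdh1*, *Slc10a2*, an apical bile acid transporter, which fell by 1.43 in log2 units (edgeR adjusted p = 0.00128), and *Anxa5*, a membrane-binding annexin, which fell by 0.21 (adjusted p = 0.0171). The higher genes were *Itgb6*, *Lamb3*, a chain of the basement membrane protein laminin, which rose by 0.81 (adjusted p = 0.00332), and *Anxa4*, which rose by 0.22 (adjusted p = 0.0478, a call lost in 6 of 12 other fits). The call of *Anxa5* was lost in 3 of them.

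Several genes that define cholangiocytes more strictly were at or near 0. *Sctr*, the secretin receptor of cholangiocytes, and *Tff2*, a mucosal trefoil peptide, had 0 counts in every library. *Cftr*, the chloride channel of the duct, had 9 counts in all. *Pkhd1*, which encodes fibrocystin of the primary cilium, was measured at 1.26 FPKM in LOXP and 1.05 FPKM in KO, a log2 fold change of -0.30 (adjusted p = 0.0510). *Sox9* at 10.4 FPKM and *Cldn4* at 83.4 FPKM over all libraries thus stood beside *Krt7*, *Epcam*, *Cftr* and *Sctr* at no more than 0.179 FPKM in any library.

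Of 21 progenitor and fetal liver genes, 10 were tested, of which 2 were lower and 2 higher in KO, with a median log2 fold change of -0.05. *Afp*, which encodes the fetal serum protein alpha-fetoprotein, had 3.45, 3.13 and 2.83 FPKM in LOXP replicates 1, 2 and 3 and 5.19, 5.58 and 5.76 FPKM in KO. It rose by 0.78 in log2 units (edgeR adjusted p = 0.00125), against the direction of *Sox9* and *Spp1*. *Lgr4*, a receptor for R-spondins, fell by 0.31 (adjusted p = 0.0271, lost in 6 of 12 other fits), and *Peg3*, named after its values were seen, fell by 0.71 (adjusted p = 0.0493) below 1 FPKM. *Tnfrsf12a*, the TWEAK receptor that is known to act on progenitor cells, was the most abundant, with a mean FPKM of 70.5 in LOXP and 75.0 in KO, followed by *Hmga2* with 14.7 and 13.3. *H19*, *Igf2*, *Gpc3* and *Thy1* had 0 counts in every library.

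The Notch and YAP lists contained no lower gene at the threshold. For comparison, 11.6% of all genes tested were lower and 11.5% higher in KO at an adjusted p under 0.05. Of 26 Notch pathway genes, 19 were tested and 2 were higher in KO, with a median log2 fold change of 0.02. *Hes1*, a direct Notch target that encodes a transcriptional repressor, had 2.89, 2.96 and 3.02 FPKM in LOXP and 5.93, 5.88 and 5.63 FPKM in KO. Its groups were widely apart, with a log2 fold change of 0.94 ± 0.0974 (SE, edgeR adjusted p = 4.36e-04). *Notch1*, a receptor, rose by 0.40 (adjusted p = 0.0181, lost in 2 of 12 other fits). *Ncstn* and *Maml1*, abundant genes of the list that serve receptor cleavage and transcription, had means of 26.02 and 13.8 FPKM in LOXP and 27.8 and 14.3 FPKM in KO. Of 30 YAP-TEAD genes, 28 were tested and 7 were higher, with a median of 0.10. *Ajuba*, a LIM protein that restrains the Hippo kinases, rose by 0.46 (adjusted p = 6.78e-04), *Yap1* itself by 0.41 (adjusted p = 0.00127) and *Stk4*, a Hippo kinase, by 0.48 (adjusted p = 0.00260). Of the best known targets, *Ccn2* rose by 0.52 (adjusted p = 0.0429, lost in 7 of 12 other fits). *Ankrd1*, named after its values were seen, rose by 0.23 (adjusted p = 0.0356). *Ccn1* had a mean FPKM of 353 in LOXP and 389 in KO (adjusted p = 0.309).

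**Figure D4:**
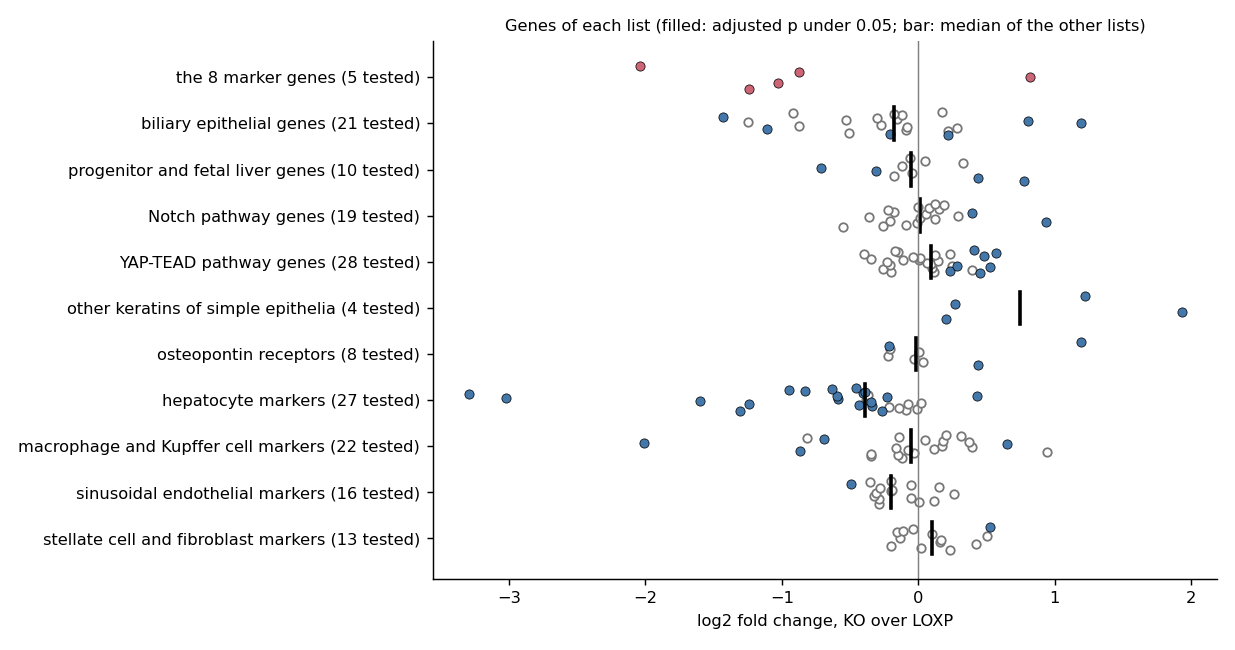
Log2 fold change of KO over LOXP (x axis) of every tested gene in each list with at least 4 tested genes (rows), filled where the adjusted p was under 0.05, with the median as a bar for each list except that of the 8 genes. The 4 other keratins lie above 0, most hepatocyte markers lie below 0, and the medians of the remaining lists shown lie between -0.20 and 0.10.

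The genes whose pattern over the 6 libraries was nearest to that of *Sox9*, *Spp1* or *Cldn4* were sought among 11101 tested genes that averaged more than 1 FPKM in either group, by the root mean square difference of centred log2 normalized counts. Nearest to *Sox9* were *Entpd2*, *H2-Q7* and *Endod1*, with differences of 0.0497, 0.0567 and 0.0631. *Entpd2* encodes an ectonucleotidase and *H2-Q7* a nonclassical MHC class I molecule with close paralogs between which reads can be shared. Nearest to *Cldn4* were *Endod1*, *Uroc1*, an enzyme of histidine breakdown, and *Cyp2a12*, a cytochrome P450, with differences of 0.0671, 0.0763 and 0.0812. Nearest to *Spp1* were *Cpn2*, *Gm31522* and *Serpina10*, with differences of 0.128, 0.149 and 0.168. *Cpn2* and *Serpina10* encode plasma proteins made by hepatocytes, with log2 fold changes of -1.96 and -1.82 beside the -2.04 of *Spp1*. Likeness over 6 libraries is a description of these libraries.

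Markers of liver cells were measured alongside. Of 27 hepatocyte markers tested, 18 were lower and 1 was higher in KO, with a median log2 fold change of -0.39 and a summed level of 13242 to 13850 FPKM in LOXP and 11251 to 11389 FPKM in KO. Log2 fold changes were -0.27 for *Alb*, -0.63 for *Trf*, which encodes transferrin, and -0.59 for *Hnf4a*, the hepatocyte transcription factor. It was -1.24 for *Cps1*, of the urea cycle, -1.31 for *Ahsg*, a secreted glycoprotein, and 0.43 for *Hpd*, of tyrosine breakdown (edgeR adjusted p from 2.66e-05 to 0.00645). *Apoa1*, also among the most abundant of the list, had a mean FPKM of 1135 in LOXP and 1095 in KO. Its log2 fold change was -0.09 (edgeR adjusted p = 0.232). Per 1000 FPKM of *Alb*, *Cldn4* was at 13.3, 15.01 and 15.1 FPKM in LOXP and 8.33, 9.28 and 7.95 FPKM in KO, lower in every KO library.

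Macrophages, which are known to make osteopontin, were traced by 24 markers, of which 22 were tested, 3 were lower and 1 was higher in KO. Their median log2 fold change was -0.05 and their summed level ran from 157 to 169 FPKM in LOXP and from 140 to 151 FPKM in KO. The 3 most abundant, *Cd9*, *Cd14* and *Cd68*, had means of 40.2, 36.8 and 37.5 FPKM in LOXP. In KO they had 39.1, 36.9 and 21.1 FPKM, and of these 3 only *Cd68* passed the threshold. The sum rests largely on these genes and does not measure the number of macrophages. On the log2 scale the difference was -0.87 for *Cd68* (edgeR adjusted p = 4.21e-04), -0.69 for *Mpeg1* (0.00401) and -2.01 for *Itgam* (0.0193), which was named after its values were seen, while *Gpnmb* rose by 0.65 (adjusted p = 0.00301). The resident macrophage markers *Clec4f* and *Adgre1* stood at 1.57 and 0.707 FPKM in LOXP and 1.75 and 0.669 FPKM in KO. The part of macrophage RNA in the *Spp1* result was not tested.

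Of 16 sinusoidal endothelial markers tested, 1 was lower, *Stab2*, a scavenger receptor, which fell by 0.49 in log2 units (edgeR adjusted p = 0.00445). The list had a median of -0.20 and summed to 38.1 to 42.9 FPKM in LOXP and 36.6 to 40.1 FPKM in KO. Of 13 stellate cell and fibroblast markers, 1 was higher, *Tagln*, which rose by 0.53 (adjusted p = 0.0195, lost in 2 of 12 other fits). This list had a median of 0.10 and summed to 21.96 to 24.6 and 24.4 to 26.1 FPKM. Lymphocyte and mesothelial lists held no testable gene, with 27 and 53 counts in all, and 12 of 14 lymphocyte markers had 0 counts. The neutrophil and erythroid list held 1 testable gene, *Alas2*, also an enzyme of heme synthesis, with 1.70 and 2.14 FPKM in LOXP and KO (adjusted p = 0.190), and summed to 2.47 to 3.75 FPKM in LOXP and 2.14 to 2.27 FPKM in KO.

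**Figure D5:**
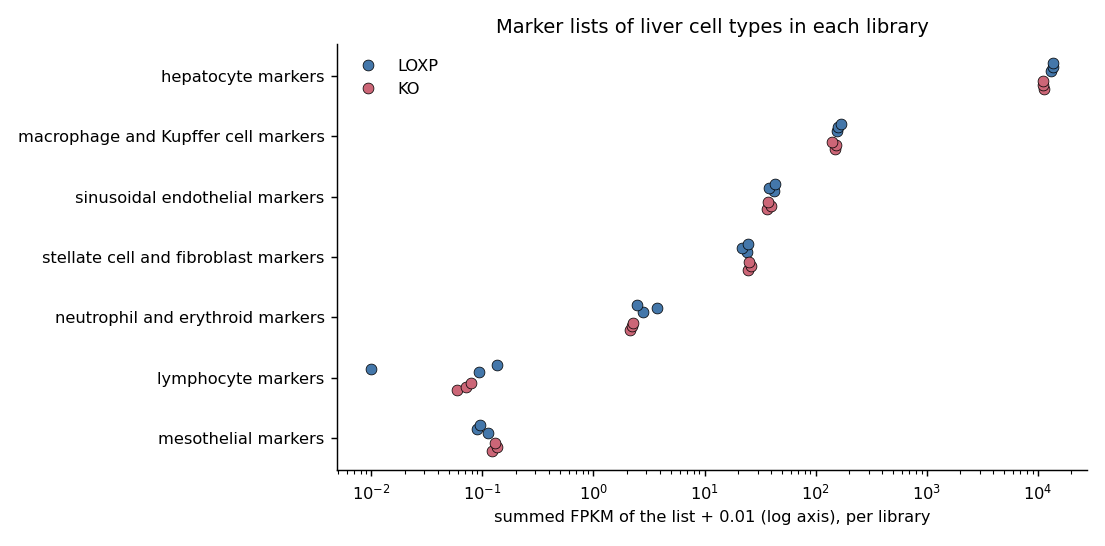
Summed FPKM of the marker lists of 7 liver cell classes in each LOXP and KO library (x axis, log scale, 0.01 added). Hepatocyte markers sum to 11251 to 13850 FPKM, macrophage markers to 140 to 169, endothelial and stellate markers to 21.96 to 42.9, and the other lists to 3.75 or less.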

How the data were processed

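RNA of PA-treated primary hepatocytes was sequenced in 6 libraries, LOXP and KO, 3 per group, grouped by the sample titles. The authors sequenced paired-end reads, mapped clean reads with HISAT2 and deposited 1 table with whole-number read counts per gene, without normalization, and FPKM values, which scale the counts to gene length and library total. Per the labels, fastp, HISAT2, StringTie and edgeR were used on GRCm39. The counting tool, annotation release and strand setting are not given in the sources used here, so without strand reads of overlapping genes cannot be told apart. All 12 value columns were used.

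The quasi-likelihood test of edgeR 4.0.16 (R 4.3.3, two-sided) was run on TMM-normalized counts of the 14151 genes that filterByExpr retained at a minimum count of 10, and p-values were adjusted over all of them by Benjamini-Hochberg. Standard errors are the fold change divided by the square root of the F statistic. Genes below the filter were given as counts, with exact Poisson intervals of pooled ratios, and such an interval was also given for *Cd24a*. The fit was tested on simulated data with known changes. No pair of replicates was alike within counting noise (chi-square over degrees of freedom 7.60 to 16.1). Intervals and floors cover counting error only.

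The 8 genes, the lists and the tests were chosen with earlier results of these data known. The genes named are the 8, *Sting1*, the 3 lower and 3 higher genes of each list with the smallest adjusted p that averaged over 1 FPKM in either group, the 3 of each list with the highest FPKM, and the 3 nearest in pattern to *Sox9*, *Spp1* and *Cldn4* (log2 normalized counts, prior count 2). Not every gene under this rule is described, and some results are not reported here. The other 12 fits were DESeq2 1.42.0, upper-quartile factors, every gene with at least 1 count, the replicate number as a block, limma 3.58.1 (limma-trend) on log2 FPKM with a pseudocount of 1 or of 0.1, and each of the 6 libraries left out in turn. Promoters were taken from RefSeq (GRCm38.p6), matched by symbol.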

Additional observations from a re-analysis of the deposited data

How the results depend on the processing

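*Sox9*, *Spp1* and *Cldn4* kept their direction and their side of the p threshold in all 12 other fits, with log2 fold changes from -0.94 to -0.76, from -2.15 to -1.54 and from -1.11 to -0.96. *Krt19* and *Cd24a* kept their direction and lost the threshold in several. *Krt19* was 0.82 with DESeq2 (adjusted p = 0.0621), 0.83 with all genes of 1 or more counts (0.0783) and 0.85 with the replicate number as a block (0.0628). It ran from 0.67 to 1.13 with single libraries left out. *Cd24a* was -1.25 with DESeq2 (adjusted p = 0.0609) and -1.24 with all genes of 1 or more counts (0.0688), and ran from -1.65 to -0.99 with single libraries left out. The number of the 8 genes higher in KO was thus 0 with DESeq2, with all genes of 1 or more counts and under the block, and 0 to 1 with single libraries left out. The number that met the 3 criteria was 1 under limma-trend on log2(FPKM + 1) and on log2(FPKM + 0.1), and 1 to 2 with single libraries left out, because *Cldn4* lay close to the fold criterion. Over all genes tested, the study's 3 criteria gave 211 lower and 79 higher genes, and 93 and 38 under limma-trend on log2(FPKM + 1). At an adjusted p under 0.05, 1641 were lower and 1633 higher, and 1052 to 1515 and 922 to 1510 with single libraries left out, the lowest without KO replicate 2, while 1088 and 1058 were found without KO replicate 1. The 4 lists of biliary, progenitor, Notch and YAP genes held 5 lower and 14 higher genes, beside 11.6% and 11.5% of all genes tested. The higher genes numbered 8 when all genes of 1 or more counts were tested. With single libraries left out, 3 to 5 were lower and 7 to 14 higher. The 3 lower genes were counted without LOXP replicate 1 and without KO replicate 2, and the higher genes numbered 7 without KO replicate 2, 8 without KO replicate 1 and 9 without LOXP replicate 3 or KO replicate 3. *Sting1* ran from -0.26 to 0.11 with single libraries left out and turned to 0.06 without LOXP replicate 3 and 0.11 without KO replicate 3. Same-numbered replicates correlated in their deviations from the group means by 0.120, 0.0834 and 0.0134 across genes, and differently numbered ones by -0.131 to 0.0459. The labels give the number no meaning, and whether same-numbered libraries share more than the number was not tested. With the block, 1605 genes were lower and 1630 higher. Depth limits *Krt7*, *Krt23*, *Epcam* and *Cd24a*, whose counts did not exceed 31 in any library. The causes of these shifts were not tested. No formal check of outlying libraries was run, since groups of 3 are too small for it.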

Other observations

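The genes nearest in pattern to *Krt19*, a search added after its values were seen, were *Fam72a*, *Pcna* and *Chek1*, with root mean square differences of 0.106, 0.129 and 0.130 in centred log2 normalized counts over the 6 libraries. *Pcna* is the sliding clamp of DNA replication and *Chek1* a checkpoint kinase. *Pcna* had a mean FPKM of 13.0 in LOXP and 23.0 in KO, a log2 fold change of 0.79 (edgeR adjusted p = 0.00220).

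Within 100 kb of the 8 genes, 14 other genes were tested. Among these, *Krt20*, *Krt80* and *Stx1a*, beside *Cldn4*, were higher in KO, the last with a log2 fold change of 0.82 (edgeR adjusted p = 0.0320). The tested neighbours of *Spp1*, *Pkd2* and *Thoc2l*, had log2 fold changes of -0.15 and 0.09 (adjusted p = 0.299 and 0.759), and *Cd24a* had 3 tested neighbours with adjusted p from 0.457 to 0.835.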
